A study of Mus musculus with 13 samples.

Results

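The adult globin genes encode the chains of hemoglobin, and the 4 analysed here are Hba-a1 and Hba-a2 (alpha chains) and Hbb-bs and Hbb-bt (beta chains). They were matched by symbol among the 53379 genes of a count table of thymic stroma, and the fifth gene chosen with them was not analysed here. The group was picked because its counts were known to differ between the conditions in these libraries. Its levels and changes are therefore given as a description, and nothing is concluded from tests of these genes. The libraries came from CD45- thymic stroma cells of 2-month-old wild type C57BL/6 mice, either untreated (steady state, 4 libraries, named in the table as PBS controls) or irradiated with a sublethal dose over the whole body (SL-TBI) and taken at day 1, 4 or 7 (3 libraries each). In the study's isolation of thymic stroma, digested thymi were depleted of CD45+ cells on magnetic columns, red blood cells were lysed with ACK buffer, and the remaining cells were purified by flow sorting. The methods call the bulk libraries biological replicates, a term that their statistics section explains as individual mice, and they do not say for each library whether cells were pooled. An antibody against TER-119, a surface marker of red cells and their precursors, is among those listed for cytometry and sorting, and the gates of these sorts are not given in the sources used here.

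Hemoglobin is a tetramer of alpha and beta chains that carries oxygen in the red cell. Its mRNAs are the most abundant transcripts of late red cell precursors and stay in the reticulocyte after the nucleus has been lost, until they decay in the circulation. Red cells and most of their precursors carry little or no CD45, so a depletion of CD45+ cells does not remove them, and lysis and sorting are relied on instead. Adult C57BL/6 mice carry a pair of nearly identical alpha genes on chromosome 11 and a pair of nearly identical beta genes on chromosome 7.

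In GRCm38 coordinates of the GENCODE M21 annotation, Hba-a1 (ENSMUSG00000069919) lies on chromosome 11 from 32283511 to 32284465 and Hba-a2 (ENSMUSG00000069917) from 32296489 to 32297298, both on the plus strand. Hbb-bs (ENSMUSG00000052305) lies on chromosome 7 from 103826534 to 103828096 and Hbb-bt (ENSMUSG00000073940) from 103812524 to 103813996, both on the minus strand. Each gene has 3 coding exons. The coding sequences of each pair were compared because the count of a gene rests on the reads that tell it from its neighbour. Hba-a1 and Hba-a2 differed at 1 of 426 coding bases (C381T, Hba-a1 first, counted from the A of the start codon), and Hbb-bs and Hbb-bt at 1 of 441 (C417T, Hbb-bs first). The stretches of 30 coding bases around these positions, from the GENCODE transcripts and with the base that differs in capitals, read as follows.
Hba-a1: gcatgcctctctggaCaaattccttgcctc
Hba-a2: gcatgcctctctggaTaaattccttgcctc
Hbb-bs: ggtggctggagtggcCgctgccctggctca
Hbb-bt: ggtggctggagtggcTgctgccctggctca

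Of all windows of 100 bases in the main transcript, 56.5% of those of Hba-a1 and 74.5% of those of Hba-a2 occurred unchanged in the other alpha gene. For the beta genes these shares were 62.6% for Hbb-bs and 54.8% for Hbb-bt. The authors' counting was run at default settings, which drop reads that align to several places, so the division of reads within a pair is uncertain and the level of each gene is a minimum. Sums over the group and changes of a gene between libraries rest on the same uniquely placed parts of the transcripts only if read and fragment lengths were alike. Whether they were alike was not checked.

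The promoters of the 4 genes are shown as well, as a description. RefSeq windows of GRCm38.p6 from 250 bases before to 50 bases after the annotated start were available for all 4 genes. The RefSeq start lies downstream of the GENCODE gene start given above, by 161 bases for Hba-a1, 3 for Hba-a2, 168 for Hbb-bs and 73 for Hbb-bt. Part of a window can therefore lie within the GENCODE gene. Of the stretches printed below, those of Hba-a1 and Hbb-bs lie wholly within it, that of Hbb-bt partly, and that of Hba-a2 outside it. The 30 bases around the CCAAT box that lies closest before the RefSeq start on the gene's own strand are given here, with CCAAT and CACCC of either strand in capitals.
Hba-a1, chr11:32283566-32283595, plus strand: agagcaagcacaaaccagCCAATgagaact
Hba-a2, chr11:32296383-32296412, plus strand: agagcaagcacaaaccagCCAATgagaact
Hbb-bs, chr7:103827993-103828022, minus strand: gccaCACCCtggtaagggCCAATctgctca
Hbb-bt, chr7:103813987-103814016, minus strand: gtaaCACCCtggcATTGGCCAATctgctca

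The part upstream of the start was identical in Hba-a1 and Hba-a2 over all 247 bases that could be aligned without a gap. Hbb-bs and Hbb-bt, also compared without a gap, shared 127 of 249 bases, or 51.0%. In these genes GATAAG began at -209 and -204 from the RefSeq start, and the printed CCAAT at -76 and -75. No single offset aligned both, so this share is a minimum of their likeness. Each of the 4 windows held the GATA motif GATAAG, the box CACCC, the box CCAAT and the TATA motif ATATAA. Searched on both strands, the GATA motif occurred in 7.44% of all 32851 RefSeq windows of this length, the CACCC box in 57.5%, the CCAAT box in 37.4% and the TATA motif in 9.82%, and 71 windows, or 0.216%, held all of them. The 4 motifs were picked for globin promoters, so finding them in these windows is a description and no test. The windows of the alpha pair, with identical upstream parts, are not separate observations. A link of the motifs to the changes between conditions was not tested. The printed CCAAT of Hbb-bt directly adjoined a copy on the opposite strand, which the window of Hbb-bs lacked.

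Total counts ran from 15721866 to 52056896 per library, with the smallest in day 4 replicate 1. Day 1 replicate 1 stood apart from the other day 1 libraries, with Pearson's r across genes of 0.935 and 0.943 against 0.993 between replicates 2 and 3, so day 1 values are also given without it. Values nearly as low occurred in other conditions. They were 0.945 between PBS day 1 replicate 2 and PBS day 4 replicate 2, and 0.946 between day 7 replicates 1 and 2. Transcripts of the intended stromal cells were present in all libraries: Pecam1 (endothelial cells) ran from 199 to 432 CPM (read counts scaled to TMM-normalized library sizes, as edgeR gives them), Pdgfra (fibroblasts) from 616 to 1282 CPM and Epcam (epithelial cells) from 14.03 to 155 CPM. The make-up differed between libraries of 1 condition, and the values of the marker lists are set beside the globin shares further on. Ptprc, which encodes CD45, was at 24.003 to 119 CPM at steady state, 12.7 to 14.99 CPM at day 1, 4.07 to 4.54 CPM at day 4 and 21.6 to 606 CPM at day 7.

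At steady state, globin reads made up between 1.64% and 3.77% of all counts, and at day 4 almost none were left. The steady-state libraries held 3.77% (PBS day 1 replicate 2), 1.64% (PBS day 4 replicate 2), 3.13% (PBS day 7 replicate 1) and 2.34% (PBS day 7 replicate 2) globin reads, a mean of 2.72% ± 0.928 (SD, n = 4). At day 1 the shares were 1.67%, 0.353% and 0.474% in replicates 1 to 3, a mean of 0.834% ± 0.731 (SD, n = 3). Day 1 replicate 1 reached the lowest steady-state library, whereas the other day 1 libraries lay below all of them, and the day 1 mean without replicate 1 was 0.414%.

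At day 4 the shares were 0.000350%, 0.00121% and 0.000970%, a mean of 0.000843% ± 0.000443 (SD, n = 3). These rested on 55, 629 and 456 globin reads, against 526601 to 1532044 at steady state. At day 7 the shares were 0.253%, 0.837% and 0.441%, a mean of 0.510% ± 0.298 (SD, n = 3). The libraries of day 4 and day 7 overlapped neither with each other nor with steady state, whereas day 7 overlapped with day 1.

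The mean share at steady state was 3.26 times that at day 1 (6.57 times without day 1 replicate 1), 3227 times that at day 4 and 5.33 times that at day 7. Even the lowest steady-state library held 1355 times the share of the highest day 4 library. From day 4 to day 7 the mean share rose 605 times. The exact 95% binomial interval of a library's share reached at most 0.678% of its value outside day 4, and 30.2% of it in day 4 replicate 1. These intervals cover counting error only, and the spread between libraries was wider in each condition.

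**Figure D1:**
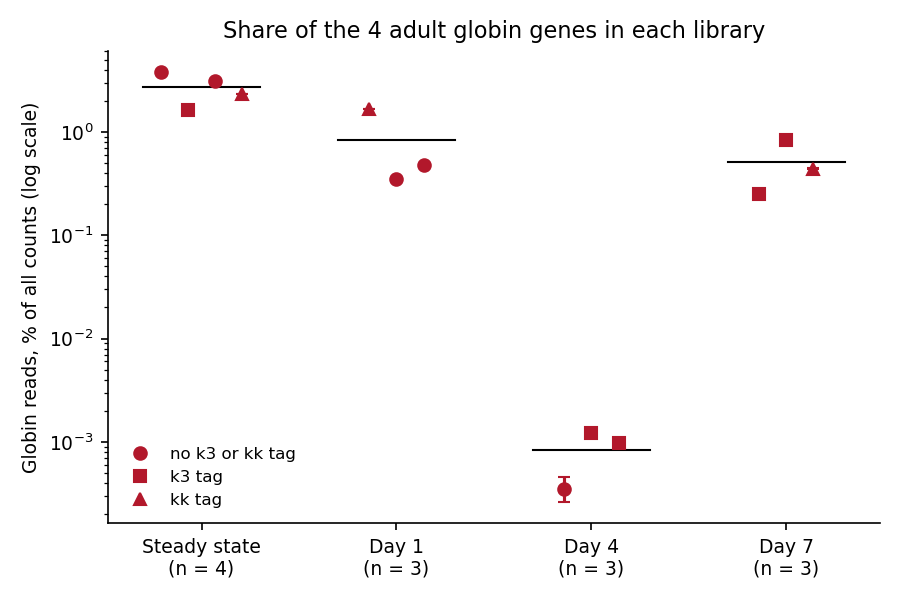
Share of the 4 adult globin genes in all counts of each library (% on a log axis), by condition. Points are libraries with exact 95% binomial intervals, symbols give the tag family in the column name, and lines are means; day 4 libraries lie between 0.000350% and 0.00121%, and steady-state libraries between 1.64% and 3.77%.

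The column names end in tags that fall into families (k3, kk or neither), whose meaning the sources used here do not give. Libraries without either tag held 3.13% and 3.77% globin reads at steady state, 0.353% and 0.474% at day 1, and 0.000350% at day 4. With the k3 tag the shares were 1.64% at steady state, 0.000970% and 0.00121% at day 4, and 0.253% and 0.837% at day 7. With the kk tag they were 1.67% at day 1, 0.441% at day 7 and 2.34% at steady state. In each family the steady-state libraries were the highest, and day 4 was the lowest where it was present. A further tag, m0, was carried by the day 7 libraries alone, so that it and day 7 cannot be told apart.

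In bulk libraries of sorted cells such as these, fewer red cells or precursors and less globin RNA in each of them cannot be told apart. At steady state Hbb-bs was among the 6 genes with the most counts in every library, with rank 1 in PBS day 1 replicate 2. At day 4 its rank among all genes fell to between 10089 and 12472. At day 7 it was back at ranks 5 to 49.

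Hbb-bs, the major beta globin gene of this strain, was at 22096, 13756, 19654 and 16986 CPM in the steady-state libraries in the order given above. At day 1 it was at 11734, 2616 and 3150 CPM, at day 4 at 2.52, 6.88 and 5.31 CPM, and at day 7 at 1708, 5001 and 2737 CPM. In CPM, libraries of steady state did not overlap with those of any time after SL-TBI. As a share of all counts, Hbb-bs in day 1 replicate 1 (1.134%) nearly reached its level in PBS day 4 replicate 2 (1.136%). Its log2 fold change (edgeR) against steady state was -1.64 ± 0.56 (SE) at day 1, -11.83 ± 0.89 at day 4 and -2.52 ± 0.58 at day 7.

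Hba-a1, the alpha globin gene with the most counts, followed the same course. It was at 8458, 4299, 7474 and 5934 CPM at steady state, 4094, 963 and 1176 CPM at day 1, 0.645, 2.55 and 1.94 CPM at day 4, and 605, 1680 and 1092 CPM at day 7. Steady state again did not overlap in CPM with any later time. As a share of all counts it overlapped with day 1, with 0.396% in day 1 replicate 1 against 0.355% in PBS day 4 replicate 2. The log2 fold changes were -1.65 ± 0.57, -11.84 ± 0.90 and -2.54 ± 0.59 (SE) at days 1, 4 and 7.

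Hba-a2, the other alpha globin gene, was at 2024, 1117, 1713 and 1612 CPM at steady state, 1143, 228 and 299 CPM at day 1, 0.323, 1.00 and 0.666 CPM at day 4, and 185, 549 and 323 CPM at day 7. Day 1 replicate 1 lay above the lowest steady-state library for this gene. The log2 fold changes against steady state were -1.54 ± 0.55, -11.16 ± 0.87 and -2.20 ± 0.57 (SE).

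Hbb-bt, the minor beta globin gene, took another course at day 1 and day 7 than the other 3 genes. It was at 1020, 653, 858 and 968 CPM at steady state, 359, 81.5 and 103 CPM at day 1, 0.0645, 0.615 and 0.518 CPM at day 4, and 176, 503 and 273 CPM at day 7. Its log2 fold change at day 1, -2.27 ± 0.57 (SE), was the most negative of the 4 genes, and that at day 7, -1.46 ± 0.55, the least negative. At day 4 it was -10.91 ± 0.87, and the level in day 4 replicate 1 rested on 1 read.

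Against steady state, 3 of the 4 genes had no overlap in CPM between libraries at day 1, and 4 of 4 at day 4 and at day 7. Libraries did not overlap in CPM for 15.8% of all 19984 genes tested at day 1, 14.7% at day 4 and 7.49% at day 7. As a share of all counts, Hba-a1 overlapped at day 1 as well. Hbb-bt then overlapped at day 7, with 0.0544% in day 7 replicate 2 against 0.0539% in PBS day 4 replicate 2. By the adjusted p of edgeR, 0 of the 4 genes passed at day 1, 4 of 4 at day 4 and 0 of 4 at day 7. At days 1 and 7 the unadjusted p was below 0.05 for 4 of 4 genes each, and DESeq2 called 2 and 3 of them. Among all genes tested with edgeR, 2.35% were called changed at day 1, 0.290% at day 4 and 0.00500% at day 7 (Benjamini-Hochberg adjusted p of 0.05 or less). These 3 comparisons share the steady-state libraries, and since the genes were chosen on these contrasts nothing is read from the counts. Without day 1 replicate 1, the day 1 log2 fold changes were -2.65 for Hbb-bs, -2.61 for Hba-a1, -2.61 for Hba-a2 and -3.24 for Hbb-bt.

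Between the times after SL-TBI, the 4 genes differed between day 1 and day 4 by log2 fold changes of -10.20 to -8.64 and between day 4 and day 7 by 8.96 to 9.45, with no overlap between libraries for 4 of 4 genes in either comparison. Libraries did not overlap for 26.3% of all genes from day 1 to day 4 and for 26.2% from day 4 to day 7. Of all genes tested, 1.43% were called changed from day 1 to day 4 (1.07% lower) and 3.90% from day 4 to day 7 (2.77% higher and 1.13% lower). Day 7 lay close to day 1, with log2 fold changes of -0.89 ± 0.57 (SE) for Hbb-bs, -0.88 ± 0.58 for Hba-a1, -0.66 ± 0.57 for Hba-a2 and 0.81 ± 0.57 for Hbb-bt, and libraries overlapped for each gene (27.5% of all genes had no overlap, and 8.13% were called changed). Without day 1 replicate 1 the differences of the first 3 genes turned to 0.12, 0.071 and 0.42, and that of Hbb-bt became 1.78.

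**Figure D2:**
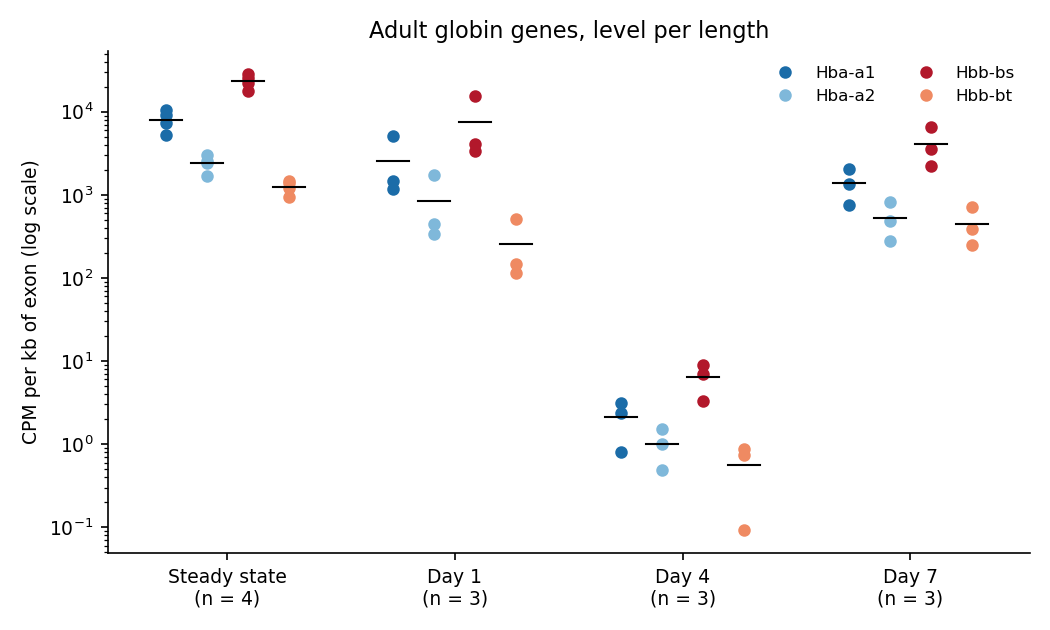
Level of each adult globin gene in CPM per kb of deposited exon length (log axis), by condition. Points are libraries and lines are means; the order Hbb-bs, Hba-a1, Hba-a2, Hbb-bt held in all 13 libraries, and the day 4 libraries of every gene lie below all others.

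Per length, Hbb-bs was the highest in all 13 libraries, followed by Hba-a1, Hba-a2 and Hbb-bt. Mean levels at steady state were 23598 ± 4664 CPM per kb for Hbb-bs, 8055 ± 2241 for Hba-a1, 2424 ± 565 for Hba-a2 and 1244 ± 231 for Hbb-bt (SD, n = 4). At steady state the library ranges of neighbours in this order did not overlap. At day 7 the neighbours below Hbb-bs overlapped, with 745 to 2068 CPM per kb for Hba-a1, 277 to 824 for Hba-a2 and 250 to 716 for Hbb-bt. At day 4 the neighbours below Hbb-bs overlapped as well, and at day 1 the ranges of all neighbours did. The deposited exon lengths (812 bases for Hba-a1, 667 for Hba-a2, 768 for Hbb-bs and 703 for Hbb-bt) count parts that the paralog shares. Counted per window of 100 bases absent from the paralog, a measure chosen after the values were seen, the order was the same in 12 of 13 libraries, the exception being day 4 replicate 1, where Hba-a2 lay above Hba-a1.

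The balance of alpha and beta reads stayed within a narrow range while their total changed more than 1000 times. Counted per kb, alpha genes made up 29.4% ± 1.73 of alpha plus beta at steady state (SD, n = 4). They made up 30.4% ± 0.460 at day 1, 30.1% ± 2.33 at day 4 and 29.8% ± 1.61 at day 7 (SD, n = 3). The lowest of the 13 libraries was at 27.0% and the highest at 32.0%, and the ranges of all conditions overlapped. At day 4 the counts limit this value, and the exact 95% interval in replicate 1, on 55 reads, ran from 16.1% to 41.0% of the counts.

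Within the alpha pair, Hba-a1 made up 75.1% to 78.2% at steady state, 74.6% to 77.6% at day 1, 62.2% to 70.6% at day 4 and 71.5% to 73.5% at day 7, per kb. Steady state and day 7 did not overlap, with means of 76.7% ± 1.38 (SD, n = 4) and 72.6% ± 1.01 (SD, n = 3). The day 4 libraries lay below all others, but their intervals were wide. In counts they were 66.7% (38.4% to 88.2%), 71.8% (65.0% to 77.9%) and 74.5% (66.4% to 81.4%).

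Within the beta pair, Hbb-bt made up 4.55% to 5.86% at steady state, 3.24% to 3.46% at day 1 and 9.84% to 10.1% at day 7, per kb, with no overlap between these conditions. The means were 5.04% ± 0.571 (SD, n = 4), 3.33% ± 0.117 and 9.95% ± 0.146 (SD, n = 3). Day 1 replicate 1, which stood apart in its globin share, did not stand apart here, with 3.24% against 3.29% and 3.46%. At day 4, Hbb-bt made up 2.72%, 8.89% and 9.63%, and in replicate 1 this was 1 of 40 beta reads, with an interval of 0.0633% to 13.2% of the counts. The intervals of the other day 4 libraries, 5.78% to 11.2% and 5.99% to 12.6% of the counts, lay above the highest steady-state library, at 5.39% of the counts. Per window absent from the paralog the ranges were 3.07% to 3.97% at steady state, 2.17% to 2.33% at day 1 and 6.75% to 6.95% at day 7, again without overlap. The kk family, present in 3 conditions, held 3.24% at day 1, 9.84% at day 7 and 5.86% at steady state. The further tags of these libraries differed, with m0 at day 7 alone, so the family does not hold the tags fixed. The split of the pair also rests on uniquely placed reads, and whether read lengths were alike was not checked.

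**Figure D3:**
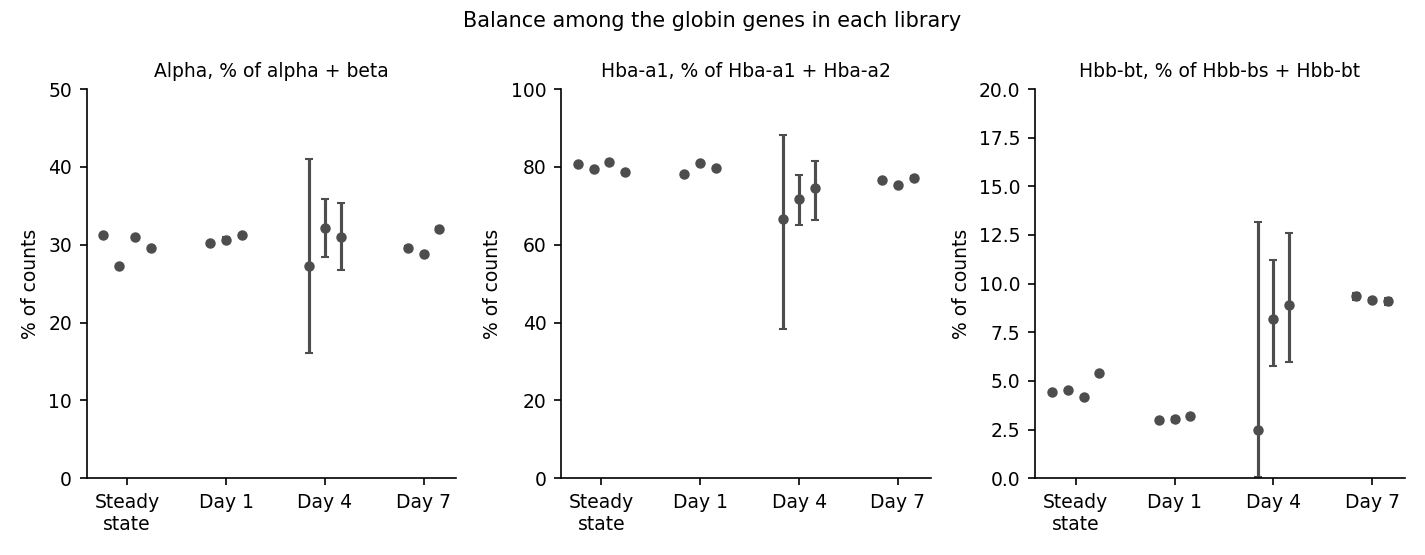
Share of alpha in alpha plus beta reads, of Hba-a1 in the alpha reads and of Hbb-bt in the beta reads of each library (% of counts, linear axes from 0), by condition. Points are libraries with exact 95% binomial intervals; Hbb-bt lies between 2.97% and 3.18% at day 1, 4.18% and 5.39% at steady state, and 9.08% and 9.34% at day 7.

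The remaining globin genes of the mouse gave far fewer reads than the adult genes. Together, the embryonic genes (Hba-x, Hbb-y, Hbb-bh1 and Hbb-bh2) and the theta genes (Hbq1a and Hbq1b) gave 86 to 315 reads per library at steady state, 20 to 102 at day 1, 0 to 15 at day 4 and 48 to 73 at day 7. Hbb-bh2 had no count in any library.

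Hbq1b, one of the theta globin genes of the alpha cluster, had 135, 72, 169 and 47 reads at steady state, 28, 6 and 5 at day 1, none at day 4, and 39, 54 and 27 at day 7. It was called lower at day 1, with a log2 fold change of -2.76 ± 0.62 (SE) and an edgeR adjusted p of 0.0451, a call that was lost in 5 of 7 fits without 1 library. Those libraries were PBS day 1 replicate 2 (adjusted p = 0.0738), PBS day 7 replicate 1 (0.127), PBS day 7 replicate 2 (0.0856), day 1 replicate 2 (0.154) and day 1 replicate 3 (0.0858). Hbq1a had 245 reads over the steady-state libraries, 46 at day 1, 1 at day 4 and 31 at day 7. Both were called lower at day 4 against steady state (edgeR adjusted p of 0.00318 for Hbq1b and 0.00395 for Hbq1a), and the call of Hbq1a was lost without day 4 replicate 2 (adjusted p = 0.0513) or replicate 3 (0.0525).

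Hba-x, the embryonic alpha-like gene, had 59, 1, 32 and 6 reads at steady state and 16, 4 and 28 at day 1. It had 0, 5 and 5 reads at day 4 and none in the day 7 libraries, although adult globin reads were back by then. Against the level that 3 counts over the day 7 libraries would give, Hba-x was at least 18.2-fold lower at day 7 than at day 1 (edgeR adjusted p = 0.0297) and at least 25.7-fold lower than at steady state, a difference that was not called. The bound against steady state was 14.9-fold without PBS day 1 replicate 2, which held 59 of the 98 reads. The call against day 1 was lost in 5 of 6 fits without 1 library, those without day 1 replicate 1 (adjusted p = 0.0748) or 3 (0.0763) and day 7 replicate 1 (0.0543), 2 (0.0879) or 3 (0.0749). Hbb-y, an embryonic beta-like gene, had 58 reads over the steady-state libraries, 43 at day 1, 8 at day 4 and 10 at day 7, with no call.

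Globin-fold proteins of other tissues did not take this course. Cygb (cytoglobin, made by fibroblast-like cells) was at 155 CPM on average over the 13 libraries, and its log2 fold changes against steady state were -0.00 ± 0.46 at day 1, 0.01 ± 0.46 at day 4 and 0.23 ± 0.46 at day 7 (SE). Mb (myoglobin) and Ngb (neuroglobin) stayed at or below 1.68 CPM in every library. None of the 3 genes was called in any comparison with steady state.

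Besides genes of red cell production, the 8 lists examined hold globin-fold proteins of other tissues and genes that handle free hemoglobin and heme. The lists hold 68 genes, of which 65 were tested. Of these, 15 were called lower and 2 higher at day 1 (edgeR adjusted p of 0.05 or less), 16 lower and none higher at day 4, and none at day 7. Among all genes, 0.671% were called lower and 1.68% higher at day 1, and 0.240% lower (48 genes) and 10 of 19984 genes higher at day 4. The median log2 fold change of the listed genes was -0.48 at day 1 against -0.10 for all genes, -0.95 at day 4 against -0.13, and -0.03 at day 7 against 0.00. At day 7, 19 of the 65 genes had an unadjusted p below 0.05, and DESeq2 called 11.

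Calls that stayed when any 1 of the 7 libraries was left out numbered 9 of 17 at day 1 (Epb42, Car2, Bpgm, Mkrn1, Slc4a1, Slc25a37, Trim10 and Fech among them) and 9 of 16 at day 4 (Car2, Bpgm, Hbq1b, Slc4a1, Slc25a37, Trim10, Tspo2 and Alas2 among them). For the other named genes the libraries that ended a call are given with each gene.

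Of the 8 heme synthesis genes, only Alas2 and Fech were called, both lower at day 1 and at day 4. Alas2, the erythroid form of the enzyme that starts heme synthesis, was at 3299, 1510, 3471 and 1803 CPM at steady state, 966, 287 and 378 CPM at day 1, 5.74, 3.44 and 3.46 CPM at day 4, and 233, 624 and 410 CPM at day 7. Its log2 fold change was -2.21 ± 0.50 (SE, edgeR adjusted p = 0.0352) at day 1, -9.24 ± 0.70 (adjusted p = 3.32e-05) at day 4 and -2.58 ± 0.51 at day 7, the last without a call. The day 1 call of Alas2 was lost without PBS day 1 replicate 2 (adjusted p = 0.0692), PBS day 7 replicate 1 (0.108), PBS day 7 replicate 2 (0.0553), day 1 replicate 2 (0.136) or day 1 replicate 3 (0.118).

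Fech, which inserts iron in the last step of heme synthesis, fell by 2.07 at day 1 and by 2.26 at day 4 on the log2 scale, and the day 4 call was lost in 5 of 7 fits. These left out PBS day 1 replicate 2 (adjusted p = 0.0548), PBS day 7 replicate 1 (0.0813), or day 4 replicate 1 (0.0507), 2 (0.197) or 3 (0.169). The other 6 enzymes, which all cells use, had log2 fold changes of 0.03 to 0.74 at day 1, -0.74 to 0.73 at day 4 and -0.32 to 0.48 at day 7, with no call. Alad, an early enzyme of the pathway, stood at 0.74 ± 0.26 (SE) at day 1 and 0.73 ± 0.26 at day 4.

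Of the 7 genes of iron supply, Slc25a37 (mitoferrin 1, the mitochondrial iron importer of erythroid cells) was called lower at day 1 (log2 fold change -3.37 ± 0.41, SE) and day 4 (-5.26 ± 0.46). It was at 76.7 to 217 CPM at steady state, 13.6 to 15.1 CPM at day 1, 3.30 to 4.90 CPM at day 4 and 30.9 to 84.8 CPM at day 7. Slc11a2, a divalent metal transporter used by many cells, was called higher at day 1 (1.06 ± 0.24, edgeR adjusted p = 0.0351). That call was lost in 5 of 7 fits, those without PBS day 1 replicate 2 (adjusted p = 0.0542), PBS day 7 replicate 1 (0.0906), PBS day 7 replicate 2 (0.120), day 1 replicate 1 (0.156) or day 1 replicate 2 (0.0620).

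Of the 11 tested red cell membrane genes, 5 were called lower at day 1 and 6 at day 4. Slc4a1, the band 3 anion exchanger, was at 56.0, 31.8, 77.4 and 43.2 CPM at steady state, 5.32, 1.63 and 1.38 CPM at day 1, 0.516, 0.0351 and 0.111 CPM at day 4, and 35.3, 108 and 59.1 CPM at day 7. Its log2 fold change was -4.23 ± 0.70 (SE) at day 1, -8.38 ± 0.92 at day 4 and 0.37 ± 0.58 at day 7. In CPM, the day 7 libraries overlapped with steady state for this gene, while those of each adult globin gene lay below it.

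Epb41 (protein 4.1) and Epb42 (protein 4.2), both of the membrane skeleton, were called lower at both times, with log2 fold changes of -2.79 and -2.97 at day 1 and -4.20 and -3.49 at day 4. The day 1 call of Epb41 was lost without day 1 replicate 2 (adjusted p = 0.0628) or 3 (0.0516). The day 4 calls were lost without day 4 replicate 2 for Epb41 (0.0522), and without replicate 1 (0.0630), 2 (0.138) or 3 (0.0525) for Epb42. Kel, a blood group protein, was called lower at day 4 alone (-4.34 ± 0.80, adjusted p = 0.0417), and of the fits without 1 library this call held only without PBS day 4 replicate 2. It was lost without PBS day 1 replicate 2 (adjusted p = 0.0701), PBS day 7 replicate 1 (0.112) or 2 (0.0747), or day 4 replicate 1 (0.115), 2 (0.345) or 3 (0.198).

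Of 10 red cell enzymes and genes of late maturation, 6 were called lower at day 1 and 5 at day 4. Bpgm, which makes the 2,3-bisphosphoglycerate that tunes hemoglobin's affinity for oxygen, fell by 2.92 at day 1 and by 5.04 at day 4 on the log2 scale. The log2 fold changes at days 1 and 4 were -2.77 and -3.46 for Car2 (carbonic anhydrase 2), -4.21 and -8.87 for Trim10 (an erythroid RING finger protein), and -2.52 and -2.77 for Mkrn1 (a ubiquitin ligase). The day 4 call of Mkrn1 was lost without day 4 replicate 2 (adjusted p = 0.0645) or 3 (0.0608). At day 7 Car2 and Trim10 stood at 0.36 ± 0.38 and -0.17 ± 0.47 against steady state, and Bpgm and Mkrn1 at -1.92 ± 0.46 and -1.32 ± 0.35 (SE), without a call.

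Tspo2, an erythroid membrane protein, was called lower at day 1 (-2.90 ± 0.68), a call lost in 5 of 7 fits with adjusted p-values of up to 0.142 (without day 1 replicate 2). It had no reads in 2 of the 3 day 4 libraries. Bnip3l, a receptor for the removal of mitochondria from reticulocytes that other cells express too, was called lower at day 1 (-1.18 ± 0.23), and the call was lost without PBS day 7 replicate 1 (adjusted p = 0.0643) or day 1 replicate 2 (0.0679) or 3 (0.0562). The other libraries whose removal ended the call of Tspo2 were PBS day 1 replicate 2 (0.0704), PBS day 7 replicate 1 (0.111), PBS day 7 replicate 2 (0.0738) and day 1 replicate 3 (0.137).

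None of the 13 erythroid regulators was called against steady state at any time (edgeR). Klf1, an activator of the adult beta globin genes, was at 0.172 to 0.614 CPM at steady state and at 0.554, 10.1 and 0.488 CPM in day 7 replicates 1 to 3. Gata1, the leading transcription factor of the lineage, was at 0.390, 5.39 and 0.678 CPM at day 7 and at or below 0.702 CPM in all other libraries. Both were highest in day 7 replicate 2, the day 7 library with the most globin reads. Rhag, Rhd, Ermap and Car1, other genes of the red cell lists, were also highest in that library. Like Klf1 and Gata1, they were chosen after their values were seen. At day 7 against steady state, the median log2 fold change of the 13 regulators was 0.18. For the 4 regulators with the highest mean CPM, the log2 fold changes were 2.15 (Myb), -0.23 (Zbtb7a), -0.20 (Lmo2) and -0.05 (Ldb1).

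**Figure D4:**
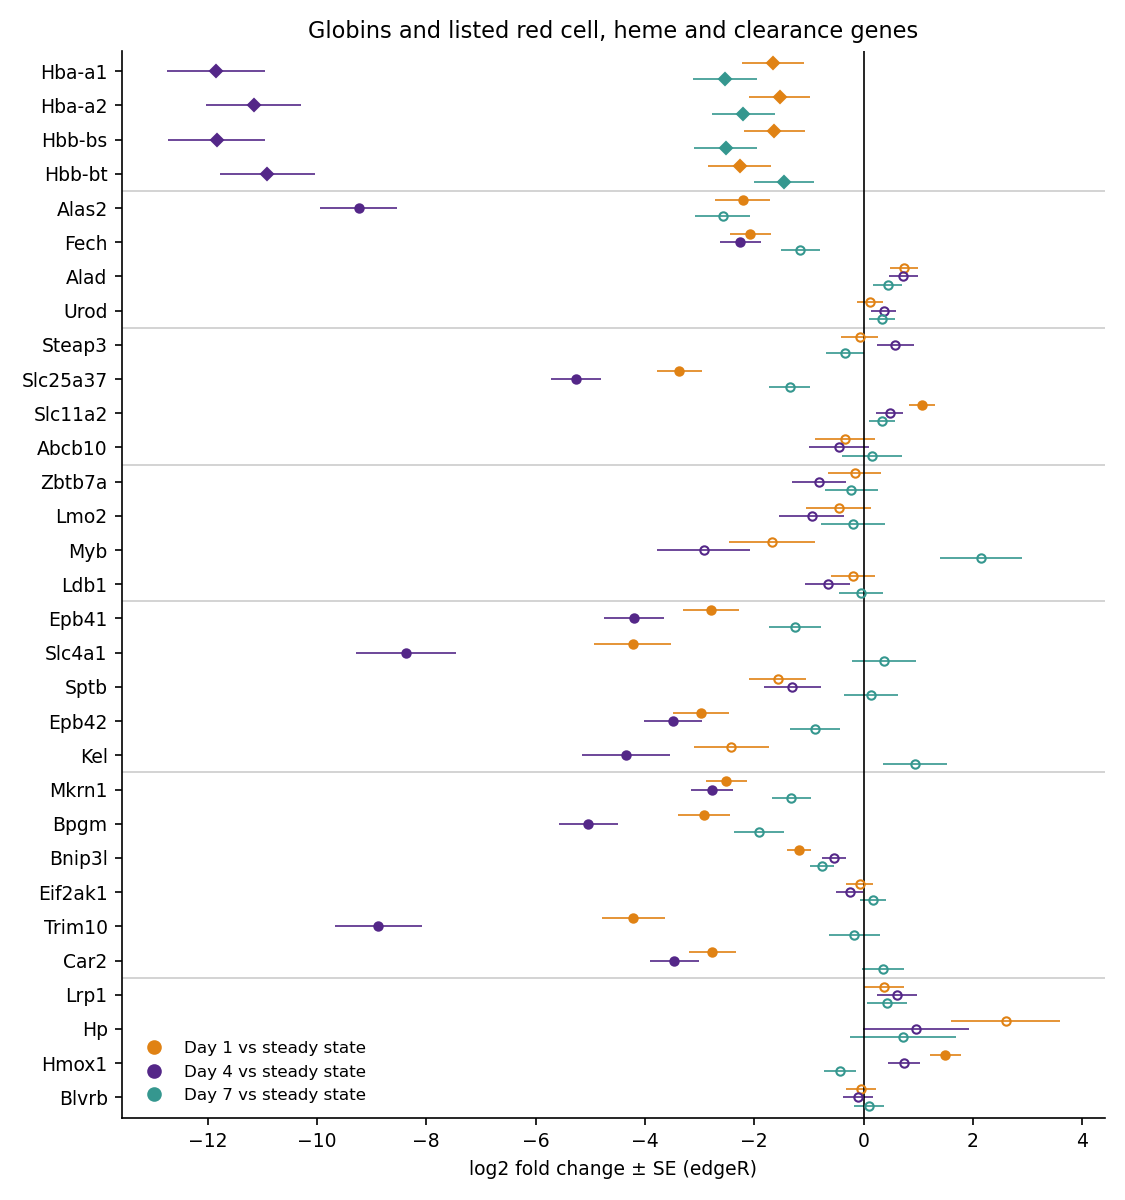
log2 fold change ± SE (edgeR) of the adult globin genes and of genes of the lists at days 1, 4 and 7 against steady state. Diamonds are the adult globins, drawn filled whether or not a gene was called. Among the other genes, filled circles are called at an adjusted p of 0.05 or less and open circles are not. Tspo2, with 3 or fewer reads at day 4, is left out, and horizontal lines separate the lists.

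None of the 9 genes that handle free hemoglobin and heme was called lower against steady state. Hmox1, the inducible heme oxygenase, was at 20.2 to 39.6 CPM at steady state, 64.4 to 113 CPM at day 1, 39.0 to 54.1 CPM at day 4 and 19.3 to 25.4 CPM at day 7. It was called higher at day 1 (log2 fold change 1.498 ± 0.29, SE, edgeR adjusted p = 0.0149), a call lost without PBS day 7 replicate 2 (0.0580) or day 1 replicate 1 (0.0775), and it was lower at day 7 than at day 1 (-1.93 ± 0.32, adjusted p = 0.00576). Hp, which encodes the hemoglobin-binding protein haptoglobin, was at 523, 888 and 367 CPM at day 1. At steady state it was at 12.9, 307, 13.99 and 57.0 CPM, so that its log2 fold change of 2.60 ± 1.00 was not called. The other 7 genes of this list were not called against steady state.

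Between the times after SL-TBI, 9 of the 65 listed genes were called lower at day 4 than at day 1, and none higher. For Alas2 (-7.02 ± 0.65, SE, edgeR adjusted p = 0.000171) this held without any 1 of the 6 libraries, while each of the other calls was lost in at least 1 fit. From day 1 to day 7, 15 genes rose and 2 fell, whereas 3.68% and 4.45% of all genes did, and Car2, Rhd, Slc4a1 and Trim10 rose in each of the 6 fits without 1 library. Slc4a1 was higher by 4.60 ± 0.73 (SE) on the log2 scale at day 7 than at day 1, in the comparison in which Hbb-bs stood at -0.89. From day 4 to day 7, 21 genes rose and none fell (2.77% of all genes rose), and Car2, Slc4a1, Slc25a37, Trim10 and Alas2 did so in every such fit.

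The number of genes called moved with single libraries. From day 1 to day 7 it was 17 in all, and 8, 8 and 7 without day 1 replicates 1, 2 and 3, and 7 without day 7 replicate 2. From day 4 to day 7 it was 21 in all, and 6 and 7 without day 4 replicates 2 and 3, and 13 without day 7 replicate 2. From day 1 to day 4 it was 9 in all, and 4 without day 1 replicate 1, and 5, 2 and 2 without day 4 replicates 1, 2 and 3. Against steady state it was 10 instead of 17 at day 1 without day 1 replicate 2, and 10 instead of 16 at day 4 without replicate 2 or 3. At day 7 against steady state, where none was called in all, it was 2 without PBS day 4 replicate 2 and 3 without day 7 replicate 1.

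The ratio of globin reads to reads of another red cell gene was computed within each library for Slc4a1, Bpgm, Epb41 and Alas2. Per read of Slc4a1 there were 384 to 624 globin reads at steady state, 2393 to 3420 at day 1 and 71.8 to 75.8 at day 7. The day 1 values rested on 188, 35 and 66 Slc4a1 reads, and the 2 day 4 libraries with more than 3 reads of the gene gave ratios of 6.88 and 76.0, on both sides of day 7. Day 1 lay above and day 7 below steady state, without overlap.

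For Bpgm the ratio was 36.0 to 51.0 at steady state, 79.9 to 120 at day 1, 0.212 to 0.601 at day 4 and 29.3 to 29.6 at day 7. For Epb41 it was 34.0 to 81.3 at steady state, 61.2 to 159 at day 1, 0.107 to 0.442 at day 4 and 18.2 to 30.5 at day 7, and day 1 overlapped with steady state. Per read of Alas2 there were 8.56 to 14.1 globin reads at steady state, 12.5 to 17.9 at day 1 and 10.8 to 12.4 at day 7, with overlap among them, and 0.618 to 3.21 at day 4. Alas2 thus kept to the globin level outside day 4, while Slc4a1 fell further at day 1 and stood higher at day 7. Bpgm and Epb41 are also expressed outside the red cell lineage. These ratios were chosen after the values were seen, and they are a description.

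**Figure D5:**
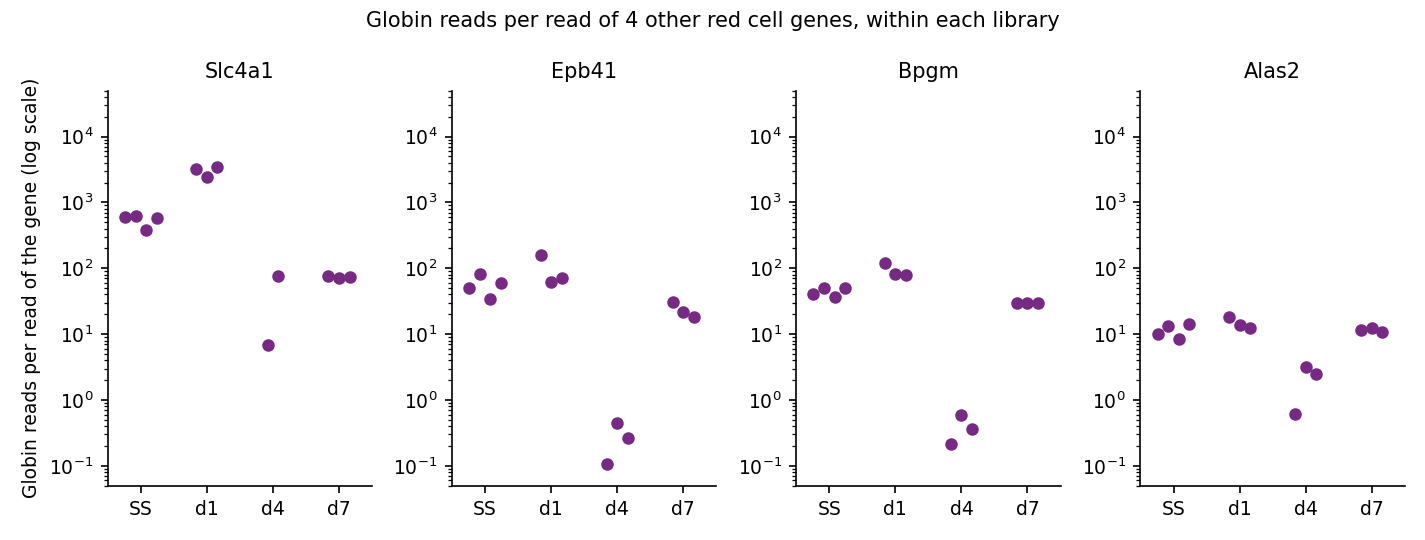
Globin reads (4 genes summed) per read of Slc4a1, Epb41, Bpgm and Alas2 in each library (log axes); SS is steady state and d1, d4 and d7 are days 1, 4 and 7. Points are libraries with more than 3 reads of the gene, so Slc4a1 has points for 2 of the 3 day 4 libraries; its day 1 points lie between 2393 and 3420 and those of day 7 between 71.8 and 75.8.

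The genes whose level ran most in parallel with the summed globins were sought among 11455 genes with a mean of at least 5 CPM, by the SD over the 13 libraries of the difference in log2(CPM + 0.5). Alas2 was the closest, with an SD of 1.39, and the 10 closest also held Cd8b1 (2.62), Cd8a (2.80), Rag1 (2.83), Slc4a1 (3.02), Cd4 (3.05), Ccr9 (3.11), Bpgm (3.14) and Slc25a37 (3.19), and the median of all ranked genes was 4.73. Between globin genes it was 0.12 for Hba-a1 and Hbb-bs, 0.50 for Hba-a1 and Hba-a2, and 0.96 for Hbb-bs and Hbb-bt.

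The list was not of the red cell lineage alone: 5 of the 10, Cd8b1, Cd8a, Rag1, Cd4 and Ccr9, are genes of developing thymocytes. The 13 thymocyte markers examined (all with a count in each condition) summed to 266 to 872 CPM at steady state, 126 to 163 CPM at day 1, 27.3 to 42.4 CPM at day 4 and 238 to 5570 CPM at day 7. Against steady state none of the 13 was called at day 1, 4 were called lower at day 4 and none was called at day 7, and all 13 were called higher at day 7 than at day 1 and than at day 4 (edgeR). Both the thymocyte sum and the globin share were lowest at day 4, without overlap with the other conditions. At day 7 the thymocyte sum of replicates 2 and 3 exceeded that of every steady-state library and the globin share of every day 7 library lay below steady state. The part of thymocytes or other remaining blood cells in the globin result was not tested.

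Myb, which was called higher at day 7 than at day 1, is expressed in thymocytes as well as in red cell precursors, and was at 6.67, 134 and 75.8 CPM in the day 7 libraries, where Ptprc was at 21.6, 606 and 224 CPM. The call of Myb (edgeR adjusted p = 0.0216) was lost in 5 of 6 fits, those without day 1 replicate 1 (0.0882), 2 (0.0577) or 3 (0.0724), or day 7 replicate 2 (0.0817) or 3 (0.0539). The 7 macrophage markers summed to 270 to 435 CPM at steady state, 403 to 500 CPM at day 1, 381 to 430 CPM at day 4 and 224 to 341 CPM at day 7, with no call at any time. Most of each mean sum was Vcam1, with means of 291, 406, 346 and 213 CPM from steady state to day 7. Among endothelial cells, the paper found this gene highest in venous ones, so the sum is not a level of macrophages alone. Adgre1 had means of 1.98, 0.787, 0.833 and 2.66 CPM. The 5 markers of megakaryocytes and platelets summed to 8.14 to 16.6 CPM at steady state, 19.0 to 27.9 CPM at day 1, 9.94 to 13.2 CPM at day 4 and 8.05 to 12.8 CPM at day 7. At day 1, when the globins were lower, 1 of the 5 genes was called higher than at steady state (Ppbp, a platelet chemokine, chosen after its values were seen). Endothelial markers summed to 619 to 916 CPM at steady state and 628 to 1059 CPM at day 4, and none of the 4 was called.

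The stromal lists varied with the globin share among the steady-state libraries. The 4 fibroblast markers summed to 14261, 107202, 26589 and 69140 CPM in the order given above, so that the library with the most globin reads had the lowest sum and the library with the fewest the highest. The 6 markers of thymic epithelial cells summed to 2215, 556, 1336 and 564 CPM in these libraries, in the same order from high to low as the globin shares. After SL-TBI the fibroblast sums ran from 23783 to 66582 CPM at day 1, 35012 to 43609 CPM at day 4 and 24483 to 45899 CPM at day 7, all within the range of steady state. The epithelial sums ran from 479 to 1332 CPM at day 1, 1210 to 2508 CPM at day 4 and 405 to 829 CPM at day 7, and each overlapped with steady state. The part of this make-up in the globin share was not tested.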

How the data were processed

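RNA-seq counts were analysed for 13 libraries of CD45- thymic stroma cells. Per the methods and labels, the authors removed adaptors with Trimmomatic, aligned the read pairs with STAR (genome build GRCm38.p5, GENCODE M12) and counted them per gene with featureCounts, each at default settings; the submitters' processing notes give versions 0.38, 2.7.0e and 1.6.3. The deposited values are raw counts per gene and library, beside the exon length of each gene in bases, and no other columns of per-sample values were present. The methods call the bulk libraries biological replicates, explained in their statistics section as individual mice, but do not describe each library, so p-values measure the spread between these libraries. The 4 steady-state columns are PBS controls (day 1 replicate 2, day 4 replicate 2, day 7 replicates 1 and 2) that do not carry the labels' numbers, and they were used as a group.

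Total counts ran from 15721866 to 52056896. Genes were filtered with filterByExpr() (19984 kept), TMM-normalized and fitted in edgeR 4.0.16 (R 4.3.3) with condition as the only term for all 13 libraries. The quasi-likelihood F-test was used with Benjamini-Hochberg adjustment over all genes kept, and SEs were the log2 fold change divided by the root of F. The fit was tested on simulated data. With 3 or fewer counts over a group, a gene was taken as at the floor of detection. Symbols, transcripts and coordinates came from GENCODE M21 (53274 of 53379 identifiers matched), and promoters from RefSeq.

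The genes, lists and comparisons were chosen with earlier results of these data known. The fifth gene of the group and some genes that the rule below names are not reported here, and balance with it included was not computed. Named genes are the 4 of each list with the highest mean CPM, up to 4 more per list that passed against steady state, the 10 most parallel to the globins, and defining markers of other cells; further genes of the lists that are named (Klf1, Gata1, Rhag, Rhd, Ermap and Car1) were chosen after their values were seen. Alternatives were DESeq2 1.42.0, RLE size factors, library sizes without the globins, other filters, the tag family as a covariate, fits of the compared conditions alone, a replicate block, each library left out, and other lengths or denominators.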

Additional observations from a re-analysis of the deposited data

Results flagged for a closer look

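Dixon's ratio was computed for 58 values of the 4 steady-state libraries, and chance would mark about 2.9 of them. A library lay far from the rest for a single value: Hp (haptoglobin) was at 307 CPM in PBS day 4 replicate 2, against 12.9 to 57.0 CPM in the other libraries (ratio 0.850). PBS day 4 replicate 2 was also the steady-state library with the lowest globin share, 1.64%. No globin gene, globin share or balance was marked.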

How the results depend on the processing

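For the 4 globin genes, 323 of 336 alternative log2 fold changes moved by less than the SD between libraries and kept their direction, those with DESeq2, RLE, library sizes without the globins, other filters, the tag family and the replicate block among them. The exceptions came from leaving out a library. Without day 1 replicate 1, the difference from day 1 to day 7 reversed to 0.071 for Hba-a1, 0.42 for Hba-a2 and 0.12 for Hbb-bs. Over all libraries left out in turn, day 1 against steady state ranged from -2.61 to -1.31 for Hba-a1, -2.61 to -1.16 for Hba-a2, -2.65 to -1.28 for Hbb-bs and -3.24 to -1.92 for Hbb-bt. Day 4 against steady state ranged from -11.56 to -10.79 for Hba-a2 and -11.26 to -10.46 for Hbb-bt. Day 4 against day 1 ranged from -10.57 to -9.22 for Hba-a1, -10.02 to -8.53 for Hba-a2, -10.55 to -9.18 for Hbb-bs and -8.99 to -7.65 for Hbb-bt. Day 7 against day 1 ranged from -1.33 to 0.071 for Hba-a1, -1.17 to 0.42 for Hba-a2 and -1.43 to 0.12 for Hbb-bs.

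The number of listed genes called was less stable. With at least 10 counts in every library, which leaves out genes that reach 0, it was 10 at day 1 (17 in the report), 7 at day 4 (16), 3 from day 1 to 4 (9), 5 from day 1 to 7 (17) and 6 from day 4 to 7 (21). With only the 2 conditions compared it was 10 at day 1, 4 from day 1 to 4, 9 from day 1 to 7 and 13 from day 4 to 7. With the tag family as a covariate it was 1 from day 1 to 4 and 11 from day 1 to 7. At day 7 against steady state it was 0 in the report, 8 without a filter and 11 with DESeq2, where Alas2, Fech, Bpgm, Mkrn1, Bnip3l, Slc25a37, Hbq1a and Hba-x were lower and Gata1, Rhd and Ermap higher. With each library left out it ranged from 10 to 18 at day 1, 10 to 16 at day 4, 0 to 3 at day 7, 2 to 8 from day 1 to 4, 7 to 20 from day 1 to 7 and 6 to 23 from day 4 to 7. Apart from fewer libraries or genes in a fit, the cause was not tested.

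The replicate numbers did not pair the 9 libraries after SL-TBI: deviations of same-numbered libraries correlated between -0.84 and 0.27. With the replicate block, 1 listed gene was called from day 1 to 4, 6 from day 1 to 7 and 0 from day 4 to 7 (28 at an unadjusted p below 0.05), against 4, 16 and 19 in the 9 libraries without it. Steady-state columns carry no label numbers, so no block was fitted there.

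Raw counts in place of counts per kb moved the share of Hba-a1 in alpha to 79.6% at day 1, 76.4% at day 7 and 80.0% at steady state, and that of Hbb-bt in beta to 3.06% at day 1 and 9.19% at day 7. Per window absent from the paralog, an alternative chosen after seeing the data, Hba-a1 was at 64.0%, 63.4%, 52.2% and 59.0% from steady state to day 7, Hbb-bt at 2.24% at day 1, 6.84% at day 7 and 3.40% at steady state, and alpha at 29.8% at day 1. The globin share of each condition moved by less than 1 SD under each alternative, and a share that includes the fifth gene was not run. Of the 10 genes most parallel to the globins, 7 stayed with a pseudocount of 0.1. Depth limits the day 4 balance, where 1 library held 55 globin reads.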
